A study of Homo sapiens with 4 samples.

Results

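The genes described here, 10 in all, act as brakes on MAP kinase signalling. They were followed in MDA-MB-231, a human cell line derived from a triple-negative breast cancer, after 24 h with Neoribocic and, as the control, with the solvent DMSO. The set holds the phosphatase genes DUSP1, DUSP4, DUSP5, DUSP6 and DUSP10, the Sprouty genes SPRY2 and SPRY4, the Sprouty-related genes SPRED1 and SPRED2, and PHLDA1. They were chosen by name, as members of one feedback system, and found by matching gene symbols to the Ensembl IDs of a count table with 20263 genes. All 10 had a row, and all 10 were among the 13879 genes with enough counts to be tested. Each group had 2 libraries of messenger RNA from cells grown with 10% serum, and the series title connects the compound to a block of the cell cycle. The treatment protocol calls the compound Rib_CA while the sample names say Neoribocic, and the pair of names was taken to mean a single treatment at a dose that the labels do not give. Nothing in the labels says that the 2 libraries of a group are separate cultures, so p-values measure only how these samples spread, which may be technical.

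Growth factor receptors switch on RAS, which passes the signal through RAF and MEK to the kinase ERK. ERK then induces genes whose products damp the same pathway. DUSP proteins remove the activating phosphates from ERK and from the stress kinases p38 and JNK, Sprouty proteins act between the receptors and RAF, and SPRED proteins bring the RAS-inactivating protein neurofibromin to the membrane. MDA-MB-231 cells carry activating mutations in the RAS pathway, and the levels of these feedback genes are widely read as a gauge of ERK output.

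Library totals ran from 34774542 to 43014212 counts. Levels are given as CPM, a gene's counts relative to the library's total, adjusted by TMM, a factor per library that allows for differences in composition. Mitochondrial genes took 5.76% and 7.24% of counts in Neoribocic replicates 1 and 2, and 8.68% and 21.7% in DMSO replicates 1 and 2. All 6 markers of the line stood at 220 CPM or more in every library, and 4 of them were called lower with Neoribocic, with log2 fold changes of -1.47 for EGFR, -1.42 for CAV1, -0.60 for AXL and -0.58 for CD44. The part of these shifts in the results was not tested. Of 8 markers of other breast cells 4 stayed under 1 CPM everywhere (CDH1, ESR1, KRT5 and KRT14), while KRT8 reached 498 CPM. Of 8 markers of other cell types 5 stayed under 1 CPM, and CD3E and DCN had no count. COL1A1 reached 8.08 CPM, PECAM1 1.16 CPM and CD68 340 CPM. Of the exon bases of CD68 81.7% are shared on the same strand with a gene that has no row in the table. The part of this overlap in its level was not tested.

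Which of these brakes the compound moves is the question here, and the answer was not the same for all of them. DUSP1, DUSP5 and SPRY2 rose, DUSP6 fell, and the other 6 did not pass the test. DUSP1 was 4.39-fold higher with Neoribocic and DUSP5 2.58-fold higher, while DUSP6 was 1.55-fold lower. By edgeR's quasi-likelihood test with a Benjamini-Hochberg adjusted p below 0.05, 3 of the 10 genes were called higher and 1 lower, or 40.0% in all. Over all genes tested 40.4% were called, 19.1% higher and 21.3% lower, so the number of feedback genes called was close to that background. Of the calls over all genes 47.2% were higher, and 59.6% when libraries were scaled by their totals. With 1 library left out the feedback genes called numbered 2 without DMSO replicate 1, DMSO replicate 2 or Neoribocic replicate 1, and 3 without Neoribocic replicate 2. Groups did not overlap for 5 of the 10, against 75.1% of all genes. The median log2 fold change, Neoribocic minus DMSO, was -0.08 over the 10 genes and 0.01 over all genes. In bulk RNA a change in the share of cells that express a gene and a change in its RNA per cell cannot be told apart.

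**Figure D1:**
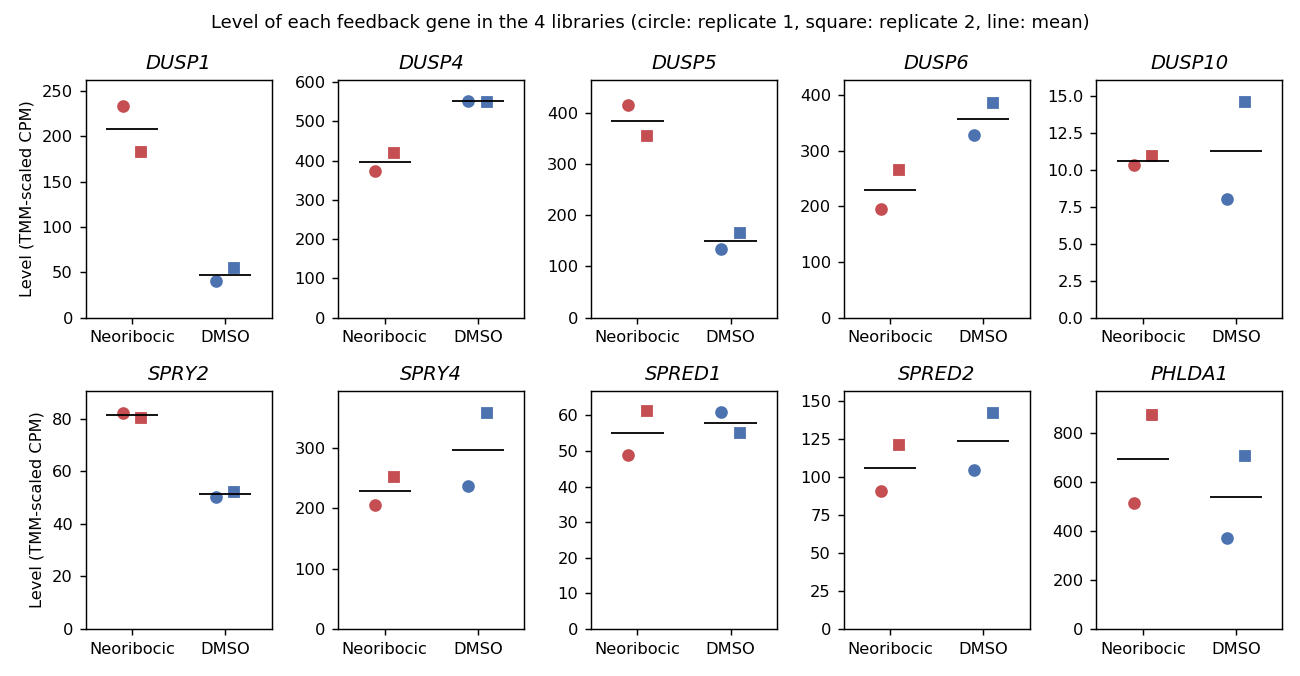
Level of each feedback gene in TMM-scaled CPM (vertical axis, from 0, scaled per panel) in the 2 Neoribocic and the 2 DMSO libraries, with circles for replicate 1, squares for replicate 2 and a line at the group mean. Both Neoribocic libraries lie above both DMSO libraries for DUSP1, DUSP5 and SPRY2, and below them for DUSP4 and DUSP6. For the rest the groups overlap.

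DUSP1 (ENSG00000120129, chromosome 5) encodes a nuclear phosphatase that acts on p38, JNK and ERK and is induced within minutes by growth factors and stress. It stood at 234 and 183 CPM in Neoribocic replicates 1 and 2, against 40.2 and 54.5 CPM in DMSO replicates 1 and 2. Both Neoribocic libraries were thus far above both DMSO libraries. The means were 208 ± 35.7 CPM with Neoribocic and 47.4 ± 10.1 CPM with DMSO (SD, n = 2 each). The log2 fold change was 2.14 ± 0.24 (SE; edgeR adjusted p = 7.94e-04), with a 95% interval of 1.60 to 2.67. After correcting for the length and GC content of transcripts it was smaller, at 1.67 (edgeR adjusted p = 0.00312). The call held under all 16 alternatives, with adjusted p from 7.06e-14 to 0.00995.

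The DUSP1 promoter is shown because it carries a full cyclic AMP response element (CRE), the palindrome TGACGTCA bound by CREB and ATF proteins. The stretch below lies 184 to 95 bases before the RefSeq start (GRCh38.p14, chr5:172771290-172771379, minus strand). Capitals mark the CRE and the shorter core site TGACG, searched on both strands.
DUSP1: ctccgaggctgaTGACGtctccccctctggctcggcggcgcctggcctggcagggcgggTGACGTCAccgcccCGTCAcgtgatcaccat
DUSP8, a relative described below that also rose, is shown for comparison because it carries 2 full CREs, between 130 and 55 bases before its start (chr11:1572326-1572401, minus strand).
DUSP8: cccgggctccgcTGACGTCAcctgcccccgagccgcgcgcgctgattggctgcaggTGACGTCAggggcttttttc
A full CRE was present in 1.85% of 35116 RefSeq promoter windows of 300 bases, and a core site, which each full CRE also contains, in 24.6%. Promoter windows were at hand for 8 of the 10 feedback genes, those other than DUSP4 and DUSP5, and among these only DUSP1 held a full CRE. A core site alone was found at 1 start each of DUSP10, SPRY2, SPRED2 and SPRY4. The SPRY2 one is shown within a stretch that lies 202 to 174 bases before the first of 3 starts (chr13:80341300-80341328, minus strand).
SPRY2: ctcggatccacaTGACGccatttactgct
SPRED3, described below, also rose, and its windows held no CRE and 1 AP-1 site. The DUSP6 window held none of the motifs searched, which besides these were the AP-1 site TGANTCA, the ETS site CCGGAAGT, the amino acid response element TGATGNAAN and the CArG box. AP-1 sites were in 7.71% of all windows, ETS sites in 4.14%, amino acid response elements in 3.61% and CArG boxes in 1.29%. One start of SPRED2 held 2 AP-1 sites and 1 amino acid response element, and the windows of SPRED1 and PHLDA1 held no match. Outside the 10, the windows of DUSP2, DUSP7, DUSP9, DUSP16 and SPRY1 held no match either. DUSP5, which rose, had no window, and whether CREs go with a rise was not tested. A match describes the letters only, and no binding was measured.

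DUSP5 (ENSG00000138166, chromosome 10) encodes a nuclear phosphatase specific for ERK, which it also anchors in the nucleus. Its levels were 416 and 354 CPM in Neoribocic replicates 1 and 2, against 135 and 164 CPM in DMSO replicates 1 and 2, with no overlap. The log2 fold change was 1.37 ± 0.20 (SE; edgeR adjusted p = 0.00191), with a 95% interval of 0.90 to 1.83. After correcting for the length and GC content of transcripts DUSP5 stood at 0.99 (edgeR adjusted p = 0.00513). Over the alternatives its adjusted p stayed between 7.17e-08 and 0.0188.

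DUSP4 (ENSG00000120875, chromosome 8), a nuclear relative of DUSP1 that acts on ERK, JNK and p38, was lower with Neoribocic in level. It had 374 and 419 CPM in the Neoribocic libraries, against 553 and 550 CPM in the DMSO libraries. The groups did not overlap, but the log2 fold change of -0.48 ± 0.19 (SE) did not pass the threshold (edgeR adjusted p = 0.0721; 95% interval -0.90 to -0.05). Under all 16 alternatives it also missed the threshold, with adjusted p from 0.0534 to 0.310. Non-overlapping groups were common, at 37.8% of all genes with Neoribocic above and 37.3% with Neoribocic below.

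DUSP6 (ENSG00000139318, chromosome 12) encodes the cytoplasmic phosphatase specific for ERK, one of the most direct readouts of ERK activity. It fell to 195 and 265 CPM in Neoribocic replicates 1 and 2, against 329 and 387 CPM in DMSO replicates 1 and 2. The groups did not overlap, and the log2 fold change was -0.64 ± 0.22 (SE; edgeR adjusted p = 0.0460; 95% interval -1.13 to -0.14). This call was narrow. It was lost without DMSO replicate 1 or 2 (adjusted p = 0.0643 and 0.176), without Neoribocic replicate 1 (0.277), with upper-quartile scaling (-0.51, 0.0998), with library totals (-0.45, 0.156), without the robust option (0.0580) and after correcting for the length and GC content of transcripts (-0.32, 0.168). The lowest adjusted p over the alternatives was 0.0329. Of the exon bases of DUSP6 40.5% overlap an uncharacterized gene on the opposite strand, AC024909.2, which has no row in the table, and no source used here says whether counting used strand.

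DUSP10 (ENSG00000143507, chromosome 1), a phosphatase for p38 and JNK, was the lowest of the 10. It had 10.3 and 10.9 CPM with Neoribocic, against 8.01 and 14.6 CPM with DMSO. The Neoribocic values lay between the DMSO values, and the 95% interval of the log2 fold change, -0.80 to 0.62, covers changes of more than 1.5-fold either way.

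**Figure D2:**
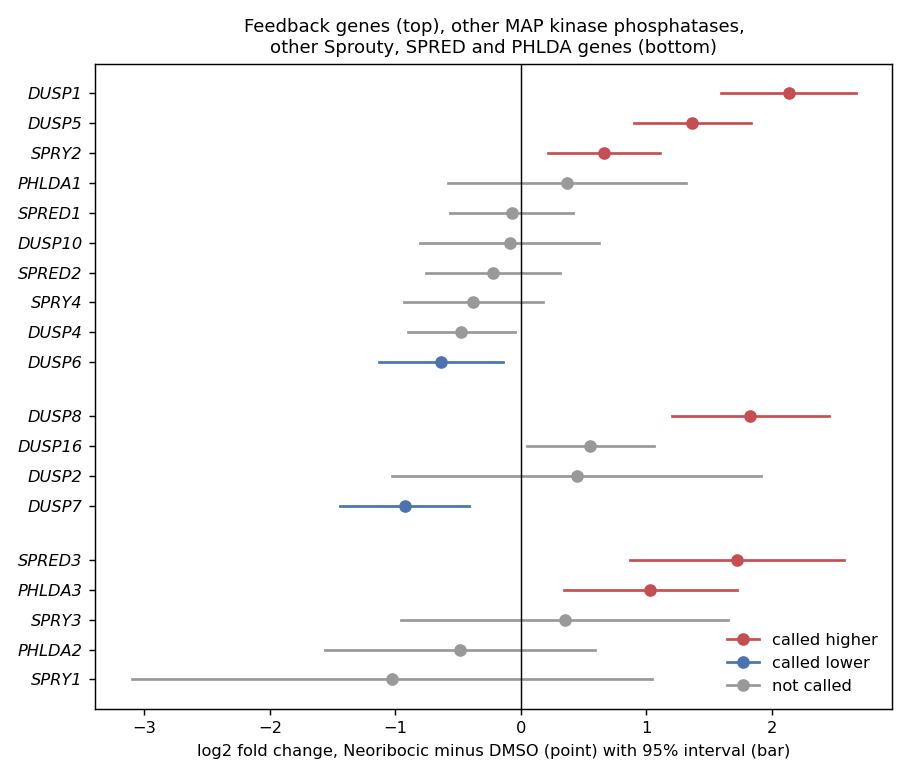
Log2 fold change, Neoribocic minus DMSO (horizontal axis), of the 10 feedback genes, the 4 other MAP kinase phosphatases tested and 5 other Sprouty, SPRED and PHLDA genes, with 95% intervals as bars. Red marks genes called higher, blue genes called lower and grey genes not called, and DUSP1 at 2.14 and DUSP6 at -0.64 are the extremes of the 10.

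Counts of 2 genes from one library can be compared without any scaling between libraries. Such ratios are not corrected for transcript length and GC content. That correction moved the log2 fold change to 1.67 for DUSP1, 0.99 for DUSP5 and -0.32 for DUSP6, which brought them closer together. There were 1.20 and 0.690 DUSP1 counts per DUSP6 count in Neoribocic replicates 1 and 2, against 0.122 and 0.141 in DMSO replicates 1 and 2. For DUSP5 the ratio to DUSP6 was 2.13 and 1.34 with Neoribocic, against 0.409 and 0.425 with DMSO. DUSP4 and DUSP6 kept closer proportions, with 1.92 and 1.58 DUSP4 counts per DUSP6 count with Neoribocic, against 1.68 and 1.42 with DMSO.

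Of the other 4 MAP kinase phosphatases tested 1 was called higher, 1 lower and 2 were not called, beside 40.4% called over all genes. The count was 1 without DMSO replicate 2, Neoribocic replicate 1 or Neoribocic replicate 2. DUSP8 (ENSG00000184545), which acts mainly on JNK and p38, rose to 10.1 and 9.37 CPM with Neoribocic, against 2.51 and 2.96 CPM with DMSO. Its log2 fold change was 1.83 ± 0.27 (SE; edgeR adjusted p = 0.00191), and 1.37 after the length and GC correction. DUSP7, the closest relative of DUSP6 and also cytoplasmic, fell to 67.2 and 62.9 CPM with Neoribocic, against 102 and 145 CPM with DMSO (log2 fold change -0.92 ± 0.22, edgeR adjusted p = 0.0131). The DUSP7 call ended without DMSO replicate 2 (-0.63, adjusted p = 0.0849) or Neoribocic replicate 1 or 2 (0.0667 and 0.0629). DUSP16, a JNK phosphatase, stood at 0.55 ± 0.22 (adjusted p = 0.0762), and after the length and GC correction at 0.93 (0.0152). DUSP2 had 20 and 12 counts with Neoribocic against 10 and 8 with DMSO, and DUSP9, with at most 11 counts in any library, was too low to be tested.

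To compare levels between genes, CPM was divided by the length in kilobases of the principal GENCODE 29 transcript. The length and GC correction was not applied to these levels. Summed over the 10 MAP kinase phosphatase genes, the level was 425 and 397 CPM per kb in Neoribocic replicates 1 and 2, against 287 and 333 CPM per kb in DMSO replicates 1 and 2. DUSP1 and DUSP5 together supplied 65.6% and 57.6% of this sum with Neoribocic, against 25.3% and 27.4% with DMSO. DUSP4 and DUSP6 together supplied 26.4% and 34.2% with Neoribocic, against 60.8% and 56.2% with DMSO. In DMSO libraries the leading phosphatase transcript per length was DUSP4, at 34.8% and 29.9%, and in Neoribocic libraries it was DUSP5, at 38.3% and 34.8%.

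**Figure D3:**
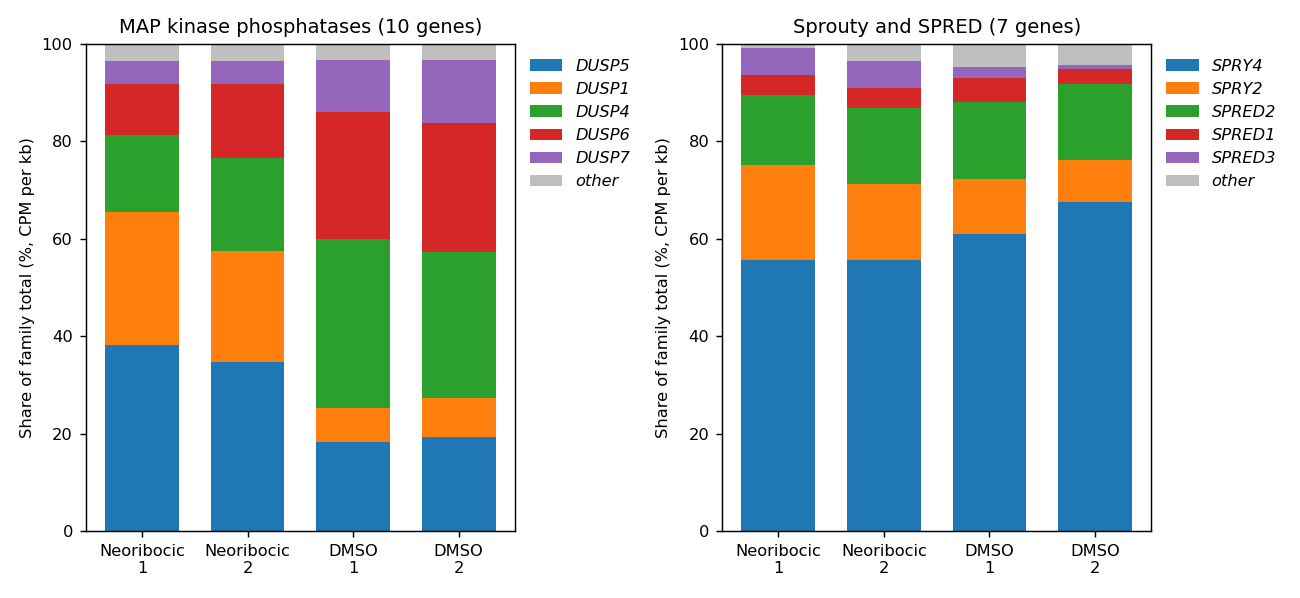
Share of each gene in the summed CPM per kb of its family (vertical axis, percent) in each library, for 10 MAP kinase phosphatases (left) and 7 Sprouty and SPRED genes (right). DUSP1 and DUSP5 take 57.6% or more of the phosphatase sum in the Neoribocic libraries and 27.4% or less in the DMSO libraries, while SPRY4 leads its family in all 4 libraries.

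Of the Sprouty genes SPRY2 rose and SPRY4 did not pass. SPRY2 (ENSG00000136158, chromosome 13), an inhibitor of receptor tyrosine kinase signalling, had 82.1 and 80.3 CPM in the Neoribocic libraries, against 50.3 and 52.2 CPM in the DMSO libraries. Replicates were close and the groups well apart, with a log2 fold change of 0.66 ± 0.19 (SE; edgeR adjusted p = 0.0263; 95% interval 0.22 to 1.11). With any 1 of the 4 libraries left out the log2 fold change stayed between 0.64 and 0.70 but was not called. The adjusted p was 0.0928 without DMSO replicate 1, 0.0745 without DMSO replicate 2, 0.109 without Neoribocic replicate 1 and 0.0732 without Neoribocic replicate 2, while the lowest over the alternatives was 0.00542.

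SPRY4 (ENSG00000187678, chromosome 5), which also restrains signalling to RAS and RAF, had 205 and 252 CPM with Neoribocic, against 236 and 357 CPM with DMSO. The groups overlapped, and the log2 fold change was -0.38 ± 0.24 (SE; edgeR adjusted p = 0.239; 95% interval -0.93 to 0.18). It passed only after the length and GC correction, at -0.79 (0.0402). Per SPRY4 count there were 0.402 and 0.318 SPRY2 counts with Neoribocic, against 0.213 and 0.146 with DMSO.

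Neither SPRED gene passed. SPRED1 (ENSG00000166068, chromosome 15) had 48.9 and 61.3 CPM with Neoribocic, against 61.0 and 54.9 CPM with DMSO, and its log2 fold change was -0.07 ± 0.21 (SE). After the length and GC correction SPRED1 stood at 0.81 and was called higher (edgeR adjusted p = 0.00880), so its direction depends on that choice. Its transcript of 7780 bases with 38.9% GC is the most AT-rich of the 10. SPRED2 (ENSG00000198369, chromosome 2) had 90.6 and 121 CPM with Neoribocic, against 105 and 142 CPM with DMSO, at -0.22 ± 0.23 (SE; edgeR adjusted p = 0.469; 95% interval -0.76 to 0.31).

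The third SPRED gene, SPRED3 (ENSG00000188766), did rise. It had 40.9 and 50.7 CPM with Neoribocic, against 18.8 and 8.84 CPM with DMSO, a log2 fold change of 1.73 ± 0.36 (SE; edgeR adjusted p = 0.00937). Its call held under all 16 alternatives, with adjusted p up to 0.0461, but its size moved to 2.37 without DMSO replicate 1 and 1.30 without DMSO replicate 2. Together SPRY2 and SPRED3 made up 25.1% and 21.1% of the summed CPM per kb of 7 Sprouty and SPRED genes with Neoribocic, against 13.8% and 9.50% with DMSO. That sum itself was 155 and 191 CPM per kb with Neoribocic and 163 and 222 CPM per kb with DMSO, which overlap. SPRY1 had 3.72 CPM in Neoribocic replicate 1 and 17.8 CPM in replicate 2, against 19.5 and 24.5 CPM with DMSO, and was called without Neoribocic replicate 2 (-2.56, edgeR adjusted p = 0.00494) but not in the full comparison (-1.03, 0.343).

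PHLDA1 (ENSG00000139289, chromosome 12), an ERK-induced gene whose product dampens receptor signalling, was the highest of the 10 in mean CPM with Neoribocic, while DUSP4 was with DMSO. PHLDA1 had 514 and 874 CPM in Neoribocic replicates 1 and 2, against 371 and 705 CPM in DMSO replicates 1 and 2. Replicates differed more than the groups, and the log2 fold change of 0.37 ± 0.39 (SE) did not pass (edgeR adjusted p = 0.483; 95% interval -0.58 to 1.32). The value was -0.02 without DMSO replicate 1, -0.06 without Neoribocic replicate 2, 0.92 without DMSO replicate 2 and 1.11 after the length and GC correction, and none of these passed. Of its exon bases 16.5% overlap genes on the opposite strand.

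Replicates differed for other feedback genes too, in both groups. Of the 10 genes 7 were higher in Neoribocic replicate 2 than in replicate 1, and 8 in DMSO replicate 2 than in replicate 1. PHLDA1 was higher in replicate 2 by 0.76 with Neoribocic and by 0.93 with DMSO on the log2 scale. The median absolute difference of the 10 genes was 0.31 with Neoribocic and 0.36 with DMSO, and that of all genes 0.25 with Neoribocic and 0.27 with DMSO. The ERK-induced transcription factor gene EGR1, named after its values were seen, had 90.0 and 128 CPM with Neoribocic, against 49.5 CPM in DMSO replicate 1 and 319 CPM in DMSO replicate 2. FOSL1, chosen in the same way, had 607 and 640 CPM with Neoribocic, against 593 and 1317 CPM in DMSO replicates 1 and 2. With mitochondrial genes left out of the fit 4 feedback genes were called. DUSP6 then stood at -0.63 (edgeR adjusted p = 0.0476) and SPRY2 at 0.67 (0.0249). Mitochondrial genes held 21.7% of the counts of DMSO replicate 2, and the part of the differences between replicates in the results was not tested. Without that library DUSP1 and DUSP5 were still called, at 2.38 and 1.53, and the other 8 were not.

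Within a group the order of levels per length can be read across genes. With Neoribocic DUSP5 led at 151 ± 17.2 CPM per kb (SD, n = 2), followed by DUSP1 at 103 ± 17.7, SPRY4 at 96.0 ± 14.2 and PHLDA1 at 86.0 ± 31.5, whose library values overlap. Below them came DUSP4 at 71.6 ± 5.67, DUSP6 at 52.3 ± 11.2, SPRY2 at 30.0 ± 0.484, SPRED2 at 25.8 ± 5.22, SPRED1 at 7.08 ± 1.12 and DUSP10 at 3.96 ± 0.158 CPM per kb. In this lower part only the values of DUSP4 and PHLDA1 overlapped. With DMSO SPRY4 led at 125 ± 35.9 CPM per kb and overlapped with DUSP4 at 99.6 ± 0.297. DUSP6 at 81.3 ± 9.29, PHLDA1 at 66.7 ± 29.3 and DUSP5 at 58.4 ± 8.28 followed, with the values of PHLDA1 overlapping both others. SPRED2 at 30.1 ± 6.50 and DUSP1 at 23.5 ± 5.00 overlapped, and SPRY2 at 18.9 ± 0.509, SPRED1 at 7.45 ± 0.558 and DUSP10 at 4.22 ± 1.73 CPM per kb were lower in turn.

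**Figure D4:**
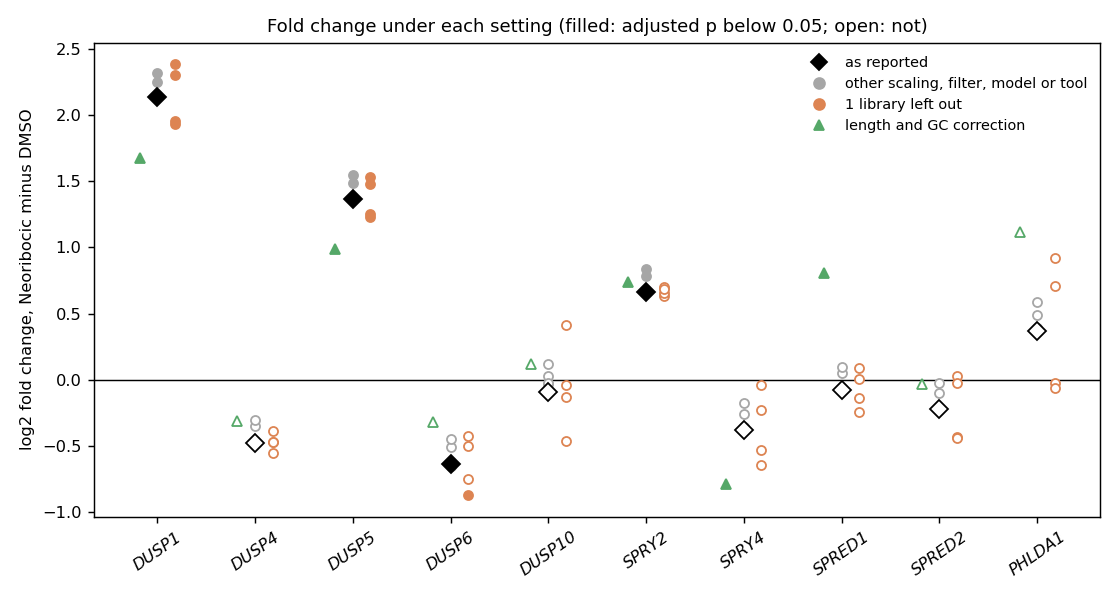
Log2 fold change, Neoribocic minus DMSO (vertical axis), of each feedback gene as reported (black diamond), with 1 library left out (orange), after the length and GC correction (green triangle) and under the other scalings, filters, models and tools (grey); filled symbols have an adjusted p below 0.05. DUSP1 and DUSP5 stay filled throughout, DUSP6 and SPRY2 do not, and SPRED1 is filled only after the correction.

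PHLDA2 and PHLDA3 share a domain with PHLDA1. PHLDA2, which is imprinted, had 315 and 274 CPM with Neoribocic, against 236 and 587 CPM with DMSO, and did not pass (log2 fold change -0.48, edgeR adjusted p = 0.409). It was called without DMSO replicate 1 (-0.997, 0.0184) and turned to 0.33 without DMSO replicate 2 (0.301). PHLDA3, a p53 target, rose to 19.9 and 11.96 CPM with Neoribocic, against 8.52 and 7.07 CPM with DMSO (log2 fold change 1.03 ± 0.30, edgeR adjusted p = 0.0262). That call was lost after the length and GC correction (0.55, 0.138), without DMSO replicate 1 or 2 (0.0644 and 0.117) and without Neoribocic replicate 1 (0.63, 0.216). Of the exon bases of PHLDA3 19.1% are shared on the same strand with AC096677.2, which has no row in the table. Among the 5 genes of the Sprouty, SPRED and PHLDA families outside the 10, SPRED3 and PHLDA3 were thus called, both higher, and 3 were not. That count is 40.0% of the 5, close to the 40.4% called over all genes. The count was 1 without DMSO replicate 2 or Neoribocic replicate 1 and after the correction.

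Of 10 other genes that ERK is known to induce 2 were called higher, 4 lower and 4 were not called, with a median log2 fold change of -0.69. Over all genes 19.1% were called higher and 21.3% lower. ETV5, a PEA3-family transcription factor, rose by 1.01 ± 0.19 (SE; edgeR adjusted p = 0.00455), and ETV1, of the same family, fell by 1.77 ± 0.21 (0.00100; -0.96 after the length and GC correction). IER3, an immediate early gene, rose by 0.95 but was not called without DMSO replicate 1 (0.60, adjusted p = 0.0907), Neoribocic replicate 1 (0.134) or Neoribocic replicate 2 (0.0641), or after the length and GC correction (0.18, 0.575). The receptor gene EPHA4 fell by 1.97 (-1.36 after the correction). CCND1 (cyclin D1) fell by 0.83 but was not called without DMSO replicate 2 (0.0558) or Neoribocic replicate 1 (0.104). Per ETV4 count there were 5.27 and 7.45 ETV5 counts with Neoribocic, against 1.78 and 1.49 with DMSO. No scaling between libraries affects this ratio, but it is not corrected for transcript length and GC content. ETV4 was itself called lower (log2 fold change -0.94, edgeR adjusted p = 0.0158), so both genes moved the ratio.

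Of 12 other feedback regulators of receptor and RAS signalling 2 rose, 4 fell and 6 were not called, with a median of -0.12. The background for these counts was 40.4% called over all genes, 19.1% higher and 21.3% lower. Whether the list differs from that background was not tested. ERRFI1, an inhibitor of the EGF receptor, had 466 and 515 CPM with Neoribocic, against 241 and 236 CPM with DMSO, a log2 fold change of 1.04 ± 0.19 (SE; edgeR adjusted p = 0.00385). LZTR1, an adaptor for the destruction of RAS proteins, rose by 0.96 but missed the threshold without DMSO replicate 2 (0.0582) or Neoribocic replicate 1 (0.0618). Of the exon bases of LZTR1 34.65% are shared on the same strand with AC002470.2, which has no row in the table. SOCS3, a cytokine feedback inhibitor, fell by 1.56, RASA1, a RAS GTPase-activating protein, by 1.55, and TRIB2, a pseudokinase, by 1.39.

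Of the kinases and adaptors of the RAS to ERK cascade 1 of 17 rose, 4 fell and 12 were not called, 29.4% called against 40.4% of all genes, with a median of -0.06. The 5 calls numbered 2 without Neoribocic replicate 1 and 8 with upper-quartile factors. SOS1, the exchange factor that loads RAS with GTP, fell by 2.11 ± 0.24 (SE; edgeR adjusted p = 8.56e-04; after the length and GC correction by 1.22). Its relative SOS2 fell by 1.14, a call lost without Neoribocic replicate 1 (0.0560) and after the correction (-0.42, 0.0596). BRAF fell by 1.42 (-0.64 after the correction), and SHC1, an adaptor of receptors, rose by 0.78, which was not called without DMSO replicate 1 (0.0617) or Neoribocic replicate 1 (0.0740).

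In the p38 and JNK cascade, which holds kinases that DUSP1, DUSP8 and DUSP10 act on and kinases above and below them, 2 of 14 genes rose, 3 fell and 9 were not called. That is 35.7% called, against 40.4% of all genes, with a median of 0.01. The 5 calls numbered 2 without DMSO replicate 1 or Neoribocic replicate 1, and 3 without DMSO replicate 2, with upper-quartile factors, with library totals and after the length and GC correction. MAP2K6, an activator of p38, had 0 counts in both Neoribocic libraries, against 60 and 57 in the DMSO libraries, at least 25.6-fold lower when 3 counts per library are taken as the limit (edgeR adjusted p = 9.04e-04). MAPK13, a p38 isoform, rose by 1.02 (0.46 after the correction, adjusted p = 0.0592). MAPK12, another p38 isoform that shares 29.3% of its exon bases with HDAC10, rose by 0.74, MAPK9 (a JNK) fell by 0.70 and MAP3K5 fell by 0.80. These last 3 calls were not stable. MAPK12 stood at -0.01 after the correction and was not called without DMSO replicate 1 or 2 (0.125 and 0.111) or Neoribocic replicate 1 (0.247). MAPK9 was not called without DMSO replicate 1 or 2 (0.0761 and 0.0889) or Neoribocic replicate 1 (0.172), nor MAP3K5 without DMSO replicate 1 (0.156), Neoribocic replicate 1 (0.168) or Neoribocic replicate 2 (0.0763).

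AP-1 and immediate early factors, many switched on by ERK and stress like DUSP1, rose in 5 of 14 cases, and 9 were not called. That is 35.7% called, all of them higher. Over all genes 40.4% were called in either direction and 19.1% higher. Of the 9 not called, only FOS and EGR3 had a negative log2 fold change, at -0.695 and -1.78. EGR3 had only 7 to 49 counts per library. The median was 0.45, and the 5 calls numbered 2 without Neoribocic replicate 1. NR4A1 rose by 1.78, JUND by 1.49 (0.69 after the correction) and JUNB by 1.47 (0.72 after the correction), and the JUNB call was lost after the correction (0.0560) and without Neoribocic replicate 1 (0.0525). Of 6 genes for proteins that bind AU-rich elements, sequences that shorten the life of messages such as that of DUSP1, 1 rose, 2 fell and 3 were not called, with a median of -0.18. ZFP36L1, a decay factor, rose by 1.28, and HNRNPD fell by 1.26. ZFP36L2, a relative of ZFP36L1, fell by 1.04 and was not called without DMSO replicate 2 (-0.59, 0.159) or Neoribocic replicate 1 (0.163).

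**Figure D5:**
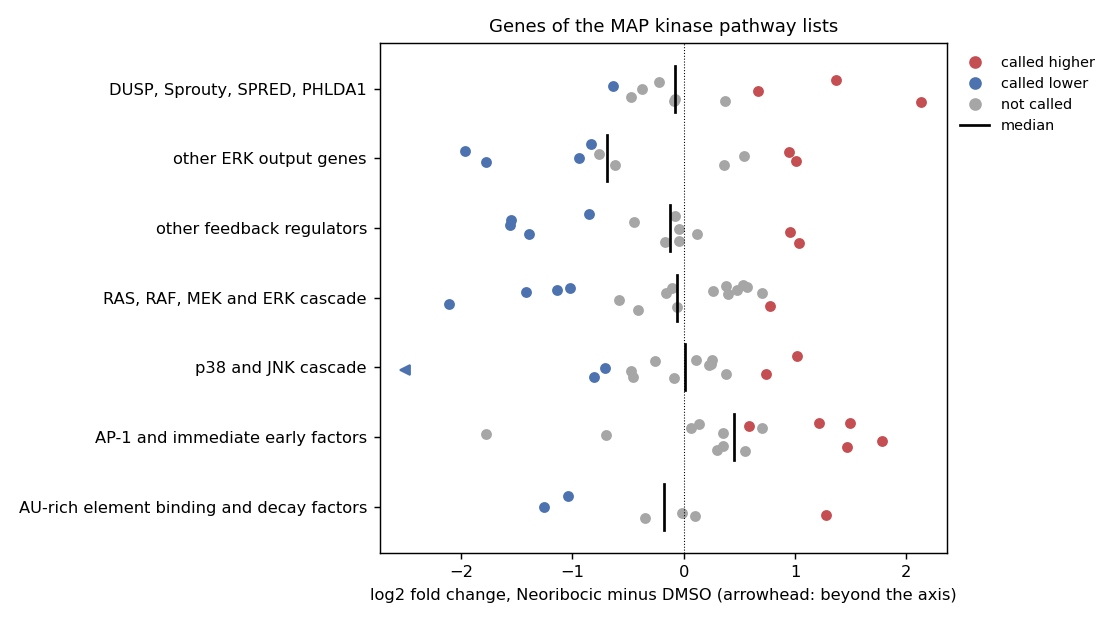
Log2 fold change, Neoribocic minus DMSO (horizontal axis), of every tested gene among the 10 feedback genes and on 6 further lists, from other ERK output genes to AU-rich element binding factors, with red for called higher, blue for called lower, grey for not called and a black line at each list's median; MAP2K6, with 0 counts in both Neoribocic libraries, lies beyond the axis. Each of these 7 sets spans both signs, and their medians lie between -0.69 and 0.45.

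The genes with the profile nearest to that of DUSP1, by Euclidean distance of centred log2 CPM over the 4 libraries among 10823 genes of at least 5 CPM on average, were PIK3IP1 at 0.101, ENSG00000250644 at 0.147, RELB at 0.155, PPP1R15A at 0.176 and IRF7 at 0.184. PPP1R15A, the stress-induced regulator of eIF2alpha dephosphorylation, had 1587 and 1418 CPM with Neoribocic, against 268 and 401 CPM with DMSO. Nearest to DUSP6 were REEP3 at 0.0147, ELK3 at 0.0415, KAZN at 0.0555, OLFML2A at 0.0578 and MBD4 at 0.0624. ELK3, an ETS transcription factor activated by ERK, had 118 and 158 CPM with Neoribocic, against 191 and 230 CPM with DMSO, and did not pass the threshold (edgeR adjusted p = 0.0522). Each distance rests on 4 values, of which 2 come from each group.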

How the data were processed

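The deposited values are whole-number counts per Ensembl gene, with no normalization by the authors. Per the labels, libraries for mRNA took 1.4 µg of input RNA each. The builds GRCm38 and mm10, both of mouse, stand in the submitters' processing notes, although the IDs are human. Aligner, counter and strand setting were not given in the sources used here. Among counts below 20, 62.3% to 65.4% were even, against 50.3% to 51.3% among counts of 20 to 200. The cause was not tested. If both mates of a pair were counted, totals would overstate the number of fragments. Of 20263 IDs 19761 had a symbol.

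edgeR 4.0.16 in R 4.3.3 was used with filterByExpr, TMM, a robust quasi-likelihood fit with group as its only term and Benjamini-Hochberg adjustment over 13879 genes. The SE is the log2 fold change over the square root of F. Alternatives used DESeq2 1.42.0, limma 3.58.1 (voom), other scalings and filters, halved counts, no mitochondrial genes, a replicate block, each library left out, and a correction that removed a smooth surface of log2 CPM on transcript length and GC content (mgcv 1.9-3). Promoter sequences are from RefSeq (GRCh38.p14). The members, lists and tests were chosen with earlier results of these data known. The genes named from other lists are up to 3 called per direction with the smallest p. ETV4, EGR1, FOSL1, FOS and EGR3 were named outside this rule.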

Additional observations from a re-analysis of the deposited data

How the results depend on the processing

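DUSP1, DUSP5 and DUSP4 kept their direction and their side of the threshold under all 16 alternatives, and of the 2 calls that did not hold throughout, DUSP6 lost its call under 7 and SPRY2 under 4. DUSP6 stood at -0.64 without the robust option, -0.51 with upper-quartile factors, -0.45 with library totals and -0.32 with the length and GC correction, and at -0.87 to -0.42 with 1 library left out. SPRY2 ran from 0.64 to 0.70 with 1 library left out. SPRY4 stood at -0.79 with the correction and was then called. Genes that were not called changed sign in places. With upper-quartile factors DUSP10 was at 0.0279 and SPRED1 at 0.0537. With library totals they stood at 0.12 and 0.10, and with the correction at 0.12 and 0.81. Outside the 10, DUSP2, not called, stood at -0.34 after the correction, and MAPK12, called higher at 0.74, stood at -0.0052. With 1 library left out the ranges were -0.46 to 0.42 for DUSP10, -0.24 to 0.0883 for SPRED1, -0.44 to 0.027 for SPRED2, -0.061 to 0.92 for PHLDA1, -0.0492 to 0.83 for DUSP2, -0.0052 to 0.86 for SPRY3 and -0.997 to 0.33 for PHLDA2.

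The number of feedback genes called was 2 to 3 with 1 library left out, 2 at a threshold of 0.01, and 3 to 5 otherwise. Over all genes 5610 were called, 2468 to 4536 with 1 library left out (1001 to 2215 higher, 1467 to 2382 lower), the lowest without Neoribocic replicate 1, and 2883 at 0.01 (1138 higher, 1745 lower). Higher calls were 47.2% of all calls with TMM, 56.8% with the upper quartile as scale and 59.6% with library totals, which moved the median log2 fold change of all genes to 0.13 and 0.18. Replicate numbers are shared between groups, but the difference between replicates 1 and 2 did not correlate between them (r = -0.05 across 13879 genes). A shared effect on only some genes could leave r this low, so it does not settle whether equal numbers mark pairs. With the replicate block 5594 genes and 4 feedback genes were called, and SPRY1 passed (-1.40, edgeR adjusted p = 0.0203). The cause of these changes was not tested. With 2 libraries per group, small changes were often below what the test could call.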
